A study of Mus musculus with 23 samples.

Results

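E0771 tumors were divided, within each experimental group, into Ndrg1-high and Ndrg1-low tumors. The arrays were selected on the measured log2 value of Ndrg1 itself. In each group of 6 arrays the 3 highest were taken as Ndrg1-high and the 3 lowest as Ndrg1-low, and in the group of 5 the 2 highest and the 2 lowest were taken and the middle array was left out. This gave 11 Ndrg1-high and 11 Ndrg1-low arrays of 23 in the series. The division follows a measured level and not a treatment, so the values of Ndrg1 are given as a description without a test, and each of 19504 other genes was compared between the 11 and 11 arrays with group in the fit (limma, two-sided, Benjamini-Hochberg adjustment over all 19504 genes, threshold 0.05). The label of the tumors, a low-oxygen response, was checked against Pdk1 and Kdm3a.

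Each array held RNA of an orthotopic tumor in a female C57BL/6NCrl mouse. The transplanted cells were E0771, a murine model of triple-negative breast cancer, placed in the mammary fat pad. CON-LFD mice (n = 6) were never obese, ate the low-fat control diet D12450J and had sham surgery. The 3 other groups had first been made obese on the high-fat diet D12492 (60% fat). DIO-HFD mice (n = 6) stayed on that diet after sham surgery, DIO-LFD mice (n = 5) changed to the low-fat diet after sham surgery, and DIO-VSG mice (n = 6) had vertical sleeve gastrectomy, which removes most of the stomach, together with the low-fat diet. E0771 cells were injected 22 weeks after the mice were first randomized, so all groups carried the same transplanted line, and tumor size was not in the fits. The source name of DIO-LFD replicate 1 gives the DIO-HFD group and that of DIO-VSG replicate 1 gives the DIO-LFD group. The titles were followed for both. Nothing in the labels says that more than 1 array came from a mouse.

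Cells sense oxygen through prolyl hydroxylases of the Egln family, which mark the alpha subunits of HIF for destruction while oxygen is present. When oxygen falls, HIF accumulates, binds a core motif (ACGTG or GCGTG) near its target genes and raises glucose uptake, glycolysis, mitophagy and the secretion of angiogenic factors. Ndrg1, a cytoplasmic stress-response protein, is one of the targets commonly read as a sign of low oxygen in tumors. Pdk1, a kinase that blocks the oxidation of pyruvate in the mitochondria, and Kdm3a, an oxygen-dependent histone demethylase, are targets of the same pathway.

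To show what lies upstream of the genes on which the results turn, the 250 bases before the start of 6 genes are printed, 5′ to 3′ on the strand of the gene. They are the markers Pdk1 and Kdm3a, the genes Mgarp and Mmp10 with the smallest p among those higher in Ndrg1-high tumors, and Lmbr1l and Ankrd37, whose levels followed Ndrg1 most closely. The sequences are those of RefSeq (GRCm38.p6), and capitals mark ACGTG or GCGTG on either strand (the opposite strand reads CACGT or CACGC). The positions are chr2:71872974-71873223 (+) for Pdk1, chr6:71632918-71633167 (-) for Kdm3a, chr3:51396548-51396797 (-) for Mgarp, chr15:98918099-98918348 (-) for Lmbr1l, chr8:45999851-46000100 (-) for Ankrd37 and chr9:7502092-7502341 (+) for Mmp10.
Pdk1: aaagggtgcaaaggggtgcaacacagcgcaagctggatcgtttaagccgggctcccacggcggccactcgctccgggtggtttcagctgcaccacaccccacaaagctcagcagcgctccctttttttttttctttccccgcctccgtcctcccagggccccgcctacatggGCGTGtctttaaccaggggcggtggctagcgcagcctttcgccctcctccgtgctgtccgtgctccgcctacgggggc
Kdm3a: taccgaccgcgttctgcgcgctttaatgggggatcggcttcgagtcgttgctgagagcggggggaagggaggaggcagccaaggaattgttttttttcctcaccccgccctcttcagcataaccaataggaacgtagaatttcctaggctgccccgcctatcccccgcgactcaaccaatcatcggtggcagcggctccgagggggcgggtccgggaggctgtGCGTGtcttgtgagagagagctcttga
Mgarp: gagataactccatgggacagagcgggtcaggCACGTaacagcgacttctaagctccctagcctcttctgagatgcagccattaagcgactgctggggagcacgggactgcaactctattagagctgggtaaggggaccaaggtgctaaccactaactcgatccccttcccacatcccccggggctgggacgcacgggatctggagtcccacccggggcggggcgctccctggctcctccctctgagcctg
Lmbr1l: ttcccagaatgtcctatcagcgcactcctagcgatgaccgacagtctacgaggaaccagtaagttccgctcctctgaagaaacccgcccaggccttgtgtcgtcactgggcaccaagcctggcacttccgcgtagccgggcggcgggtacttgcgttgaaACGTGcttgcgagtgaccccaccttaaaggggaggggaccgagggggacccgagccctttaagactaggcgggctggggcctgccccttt
Ankrd37: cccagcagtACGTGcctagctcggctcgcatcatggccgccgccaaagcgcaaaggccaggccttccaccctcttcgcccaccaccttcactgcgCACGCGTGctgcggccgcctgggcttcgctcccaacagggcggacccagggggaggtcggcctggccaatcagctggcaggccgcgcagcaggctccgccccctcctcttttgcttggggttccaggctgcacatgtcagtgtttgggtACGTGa
Mmp10: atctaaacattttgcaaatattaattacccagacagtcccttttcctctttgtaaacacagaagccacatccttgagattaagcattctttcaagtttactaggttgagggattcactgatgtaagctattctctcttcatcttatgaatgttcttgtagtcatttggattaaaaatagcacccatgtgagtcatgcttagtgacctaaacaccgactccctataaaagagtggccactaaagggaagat
Pdk1, Kdm3a, Mgarp and Lmbr1l each held 1 match, Ankrd37 held 4 (of which CACGC and GCGTG overlap) and Mmp10 held 0. The match of Pdk1 began 78 bases before the start and that of Kdm3a 27 bases before it. Over the 250-base windows of 27025 genes, 38.6% held at least 1 match, and over the 15691 measured genes with a window 45.4%. Among 71 measured members of the HIF target lists with a window, 47 (66.2%) held a match. A match shows only that these letters are present, and binding was not measured.

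The level of Ndrg1 set the division and is given for every array. In CON-LFD tumors the Ndrg1-high arrays stood at 14.41, 14.79 and 14.95 and the Ndrg1-low arrays at 13.50, 13.74 and 14.31 on the log2 scale. In DIO-HFD tumors the Ndrg1-high arrays stood at 14.97, 15.11 and 15.85 and the Ndrg1-low arrays at 14.59, 14.95 and 14.97. The gap at the division was thus 0.10 in CON-LFD and 0 in DIO-HFD, where replicates 2 (low) and 5 (high) had the same value and were parted only by array order. In DIO-LFD tumors the Ndrg1-high arrays stood at 15.15 and 15.18, the array left out at 15.01 and the Ndrg1-low arrays at 14.09 and 14.98, and in DIO-VSG tumors the values were 15.11, 15.11 and 15.22 against 13.99, 14.24 and 14.87. The gaps there were 0.17 and 0.24. The mean Ndrg1-high minus Ndrg1-low difference was 0.87 for CON-LFD, 0.47 for DIO-HFD, 0.63 for DIO-LFD tumors and 0.78 for DIO-VSG, and the division was therefore narrowest in DIO-HFD, whose lowest Ndrg1-high array lay above every CON-LFD array.

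**Figure D1:**
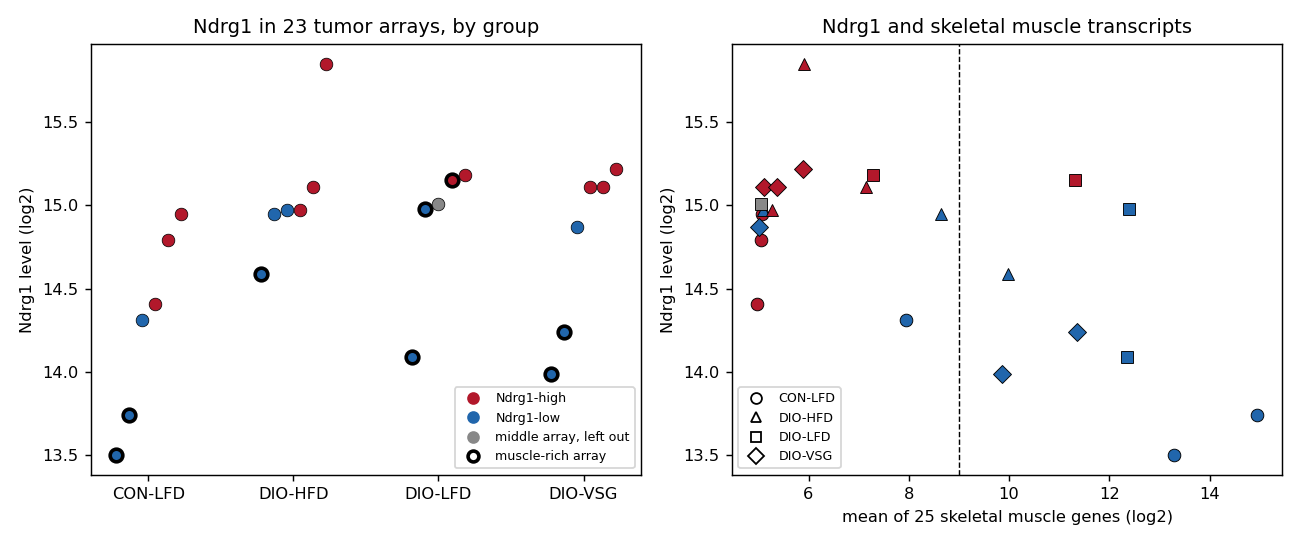
Left, Ndrg1 level (log2) of each of 23 arrays by group, red for Ndrg1-high, blue for Ndrg1-low, gray for the array left out, with a thick outline for muscle-rich arrays. Right, the same Ndrg1 levels against the mean log2 level of 25 skeletal muscle genes, with a dashed line at the limit of 9. Of 8 arrays to the right of the line, 7 are Ndrg1-low and 1 is Ndrg1-high.

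Transcripts of skeletal muscle moved with this division. The mean of 25 skeletal muscle genes ran from 4.97 to 11.31 (median 5.36) in the 11 Ndrg1-high arrays and from 5.00 to 14.95 (median 9.98) in the 11 Ndrg1-low arrays. Above a mean of 9 lay 8 arrays, which are termed muscle-rich. Of these, 7 were Ndrg1-low, namely replicates 3 and 5 of CON-LFD, replicate 1 of DIO-HFD, replicates 1 and 5 of DIO-LFD and replicates 2 and 4 of DIO-VSG. The other was Ndrg1-high (DIO-LFD replicate 4). With group means removed, Ndrg1 and this mean had r = -0.75 (Spearman -0.71) over 23 arrays, and r = -0.22 over the 15 arrays that were not muscle-rich. In bulk RNA, fewer cells of a type and less RNA per cell cannot be told apart. Values in the muscle settings, given in the order of the fit with the muscle mean as a covariate and the fit without the muscle-rich arrays, stand beside the lists and genes that moved most. The second setting keeps 10 Ndrg1-high and 4 Ndrg1-low arrays, with no Ndrg1-low array left in DIO-LFD.

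Across all genes, the division by Ndrg1 gave no gene that passed the test. Limma called 0 genes higher (0%) and 0 lower (0%) in Ndrg1-high tumors, and the smallest adjusted p was 0.102. At an unadjusted p below 0.05 there were 1277 of 19504 genes, 706 higher (3.62%) and 571 lower (2.93%). After centering of the arrays on their medians the split was 924 higher and 425 lower. The median difference of all genes was 0.02 on the log2 scale, and 54.6% of genes lay above 0. With the muscle mean as a covariate 0 genes passed (smallest adjusted p = 0.998), and 0 passed among the 14 arrays that were not muscle-rich (0.866). Leaving out 1 array gave calls for 3 arrays: 1 higher without CON-LFD replicate 3, 4 higher and 27 lower without DIO-HFD replicate 2, and 7 higher and 51 lower without DIO-VSG replicate 6. For the 11 and 11 division, higher and lower give the sign of a difference that did not pass after adjustment.

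The markers of the label were higher in Ndrg1-high tumors of 3 of the 4 groups. Pdk1 ran from 12.53 to 13.96 (median 13.15) in Ndrg1-high and from 12.36 to 13.25 (median 12.84) in Ndrg1-low arrays, and the ranges overlapped. It was 1.26-fold higher, a log2 difference of 0.33 ± 0.12 (SE, adjusted p = 0.486). By group the Pdk1 difference was 0.52 in DIO-HFD, 0.47 in CON-LFD, 0.27 in DIO-VSG and -0.04 in DIO-LFD. Kdm3a ran from 10.35 to 11.65 (median 10.63) against 9.93 to 11.15 (median 10.65), so that the medians were level while the fitted difference was 0.30 ± 0.15 (adjusted p = 0.817). It was 0.22, 0.35 and 0.61 in CON-LFD, DIO-HFD and DIO-VSG and -0.14 in DIO-LFD. Had the arrays been divided by Pdk1 in the same way, 8 of the 11 Ndrg1-high arrays would have been in the high set, and 6 of 11 by Kdm3a. A high set takes 3 of 6 arrays of a group (2 of 5 in DIO-LFD), so unrelated rankings would share arrays too. The counts were not tested against that share. The Pdk1 difference was 0.16 with the muscle covariate and 0.24 without the muscle-rich arrays, and that of Kdm3a 0.24 and 0.31. Neither marker passed, so the tumors are called here by their Ndrg1 level and not by oxygen.

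**Figure D2:**
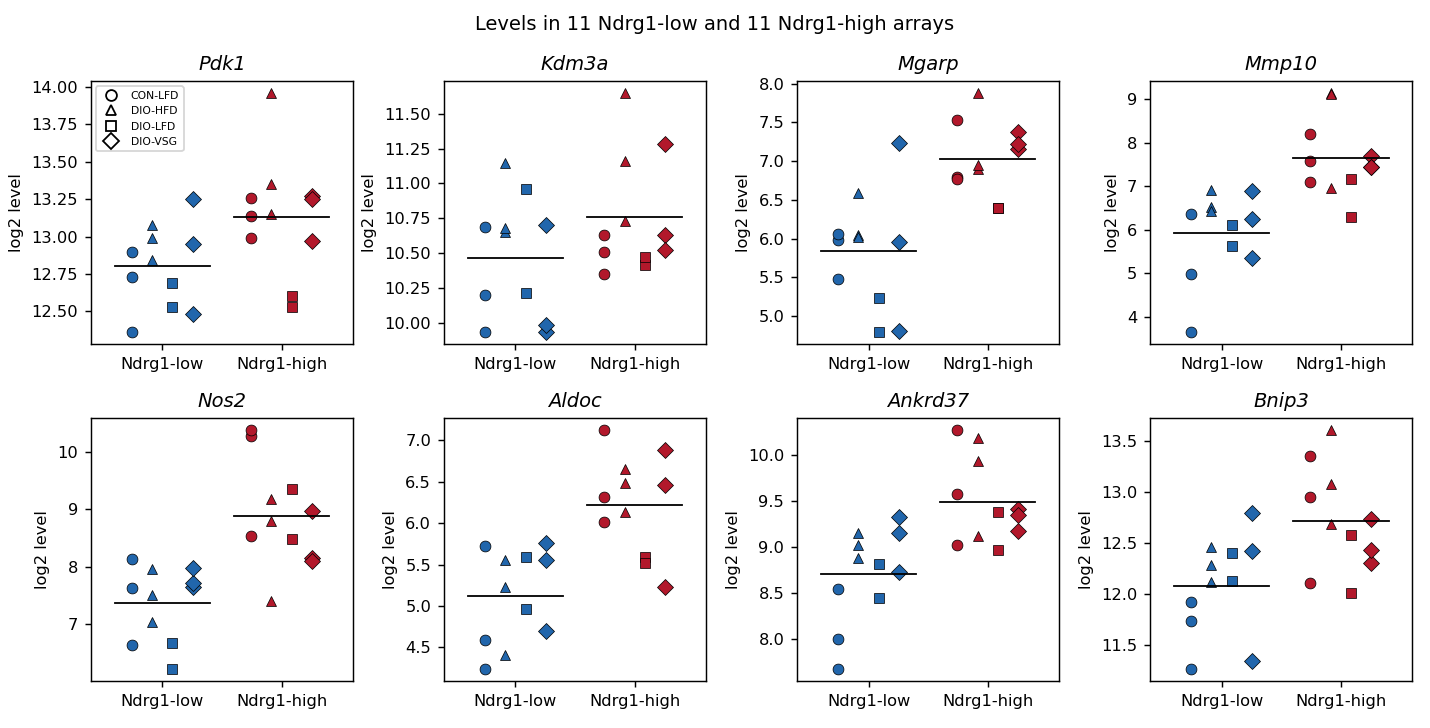
Log2 level of 8 genes in 11 Ndrg1-low (blue) and 11 Ndrg1-high (red) arrays, with a symbol per group and a line at the mean of the 11 arrays. The sets overlap for Pdk1, with medians of 12.84 and 13.15, and for Kdm3a, with medians of 10.65 and 10.63, and stand farther apart for Mgarp, with medians of 5.98 and 6.95.

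The smallest p among genes higher in Ndrg1-high tumors belonged to Mgarp, a mitochondrial protein that takes part in the transport of mitochondria and is itself induced by HIF. Mgarp ran from 6.39 to 7.88 (median 6.95) in Ndrg1-high and from 4.79 to 7.23 (median 5.98) in Ndrg1-low arrays. It was 2.29-fold higher (1.20 ± 0.21, adjusted p = 0.102), by 1.03 to 1.38 in every group. Mmp10, the matrix protease stromelysin-2, ran from 6.29 to 9.14 (median 7.44) against 3.65 to 6.92 (median 6.26) and was 3.31-fold higher (1.73 ± 0.32, adjusted p = 0.102). It was the only gene (0.00513% of 19504) whose Ndrg1-high arrays all stood above the Ndrg1-low arrays in each of the 4 groups. That count rests on the tie in DIO-HFD: with the tied arrays swapped Mmp10 was apart in 3 groups and 0 genes were apart in all 4, and with both left out 5 genes were. The array left out of DIO-LFD, at 5.59, stood below both of its Ndrg1-low neighbors.

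Nos2, the inducible nitric oxide synthase of activated macrophages and a HIF target, ran from 7.40 to 10.38 (median 8.79) against 6.22 to 8.14 (median 7.62). The difference was 1.50 ± 0.30 (adjusted p = 0.124), largest in DIO-LFD (2.47) and CON-LFD (2.26) and smallest in DIO-VSG (0.62). Lmbr1l, a membrane protein that restrains Wnt signaling in lymphocytes, was higher by 0.70 ± 0.14 (adjusted p = 0.121), from 0.54 to 0.80 by group. Tmem45a2, a membrane protein, was higher by 0.84 ± 0.17 (adjusted p = 0.135), but its mean lay below the limit of low signal, the 40th percentile of probe set means. These 5 genes kept the larger share of their differences in both muscle settings: 0.89 and 0.85 for Mgarp, 1.19 and 1.29 for Mmp10, 1.35 and 1.13 for Nos2, 0.56 and 0.55 for Lmbr1l and 0.89 and 0.94 for Tmem45a2. None passed there.

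HIF targets were described by role, from lists of genes named for what they do. Over all genes 54.6% lay above 0, and at an unadjusted p below 0.05 3.62% were higher and 2.93% lower. Among 19 measured genes of oxygen sensing and HIF regulation, 13 lay above 0 and 2 had an unadjusted p below 0.05, with a median difference of 0.08 against 0.02 for all genes. Egln3, the oxygen-sensing hydroxylase that HIF itself induces, ran from 13.49 to 14.43 (median 13.85) in Ndrg1-high and from 12.66 to 14.12 (median 13.59) in Ndrg1-low arrays and was higher by 0.45 ± 0.15 (adjusted p = 0.363), in 4 of 4 groups.

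Among 25 genes of glucose uptake, glycolysis and glycogen, 19 lay above 0, 4 were higher and 2 lower at an unadjusted p below 0.05, and the median was 0.17. Aldoc, the aldolase of brain that low oxygen induces elsewhere, ran from 5.23 to 7.13 (median 6.32) against 4.24 to 5.76 (median 5.23). It was 2.14-fold higher (1.10 ± 0.24, adjusted p = 0.143), by 1.64 and 1.36 in CON-LFD and DIO-HFD and by 0.85 and 0.28 in DIO-VSG and DIO-LFD. Slc2a1, the glucose transporter GLUT1, ran from 16.34 to 17.60 (median 16.74) against 15.76 to 16.83 (median 16.40) and was higher by 0.40 ± 0.15 (adjusted p = 0.514). The 2 lower members were Pfkm, the phosphofructokinase of muscle (-0.93 ± 0.31), and Ppp1r3c, which directs a phosphatase to glycogen (-2.48 ± 0.84). They stood at 0.02 and 0.72 with the muscle covariate, whereas Aldoc stood at 1.03 and, without the muscle-rich arrays, at 1.26. The list median was 0.07 and 0.01 in these settings.

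Genes that turn cells away from mitochondrial respiration were mostly higher. In that list 10 of 11 members lay above 0, against 54.6% of all genes. At an unadjusted p below 0.05, 5 of 11 were higher, against 3.62% of all genes, and the marker Pdk1 was among them. The list median was 0.26, and 0.22 with the muscle covariate and 0.21 without the muscle-rich arrays. Hilpda, a lipid droplet protein that low oxygen induces, ran from 11.26 to 13.19 (median 11.57) against 9.99 to 11.76 (median 10.86) and was 1.89-fold higher (0.92 ± 0.24, adjusted p = 0.194). Bnip3, a receptor for mitophagy, ran from 12.01 to 13.61 (median 12.68) against 11.26 to 12.79 (median 12.12) and was higher by 0.64 ± 0.20 (adjusted p = 0.339). Mxi1, a repressor that opposes MYC, was higher by 0.33 ± 0.14 (adjusted p = 0.674). For Hilpda and Bnip3 the difference was wider in CON-LFD (1.54 and 1.16) and DIO-HFD (1.32 and 0.84) than in DIO-VSG (0.37 and 0.30) and DIO-LFD (0.23 and 0.04).

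Secreted and angiogenic signals followed the same direction, with 13 of 14 members above 0 and a median of 0.44. At an unadjusted p below 0.05, 4 of 14 were higher, against 3.62% of all genes. Ankrd37, which the list also holds, is an ankyrin repeat protein induced by HIF and not itself a secreted signal. It ran from 8.97 to 10.27 (median 9.38) against 7.68 to 9.32 (median 8.82). Its difference was 0.78 ± 0.19 (adjusted p = 0.157). Adm, which encodes the vessel-dilating peptide adrenomedullin, ran from 12.70 to 15.35 (median 14.25) against 12.17 to 13.94 (median 13.58) and was higher by 0.78 ± 0.25 (adjusted p = 0.351), with 0.79 and 0.78 in the muscle settings. Stc1, a secreted glycoprotein, was higher by 0.56 ± 0.21, and 0.19 with the muscle covariate. Vegfa, the main growth factor of blood vessels, was higher by 0.35 ± 0.18 (adjusted p = 0.806), or 0.22 and 0.14 in the muscle settings. The list median was 0.17 with the muscle covariate and 0.06 without the muscle-rich arrays.

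**Figure D3:**
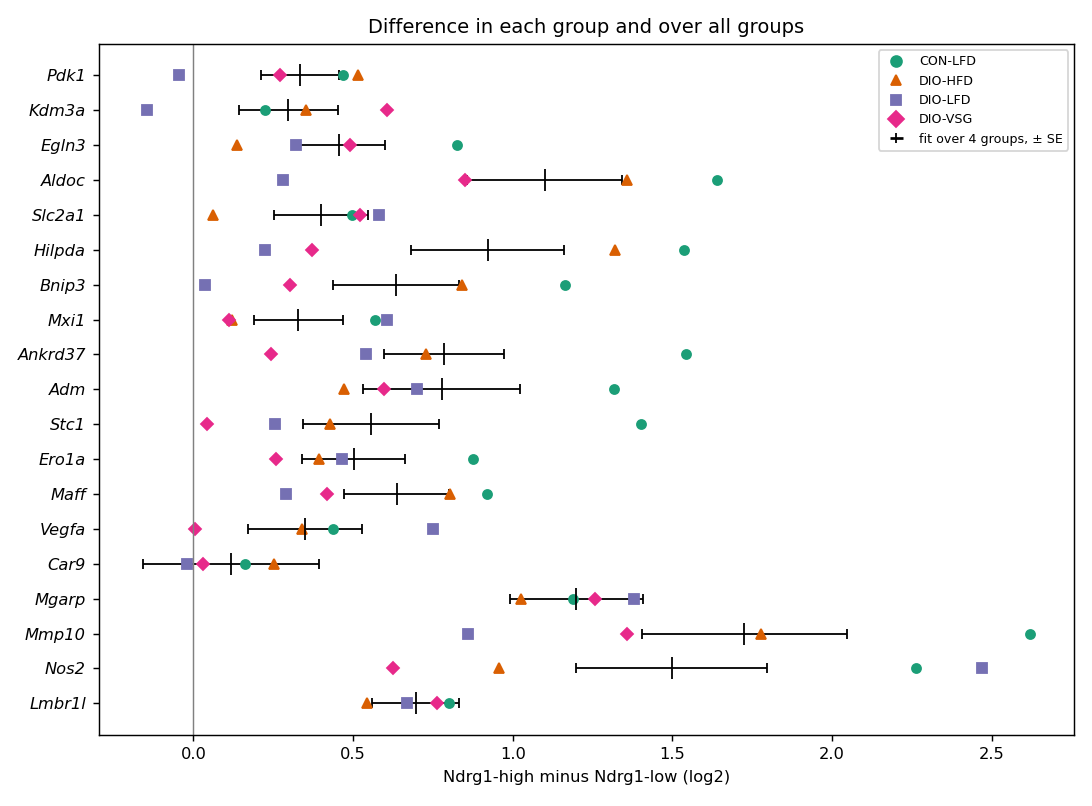
Ndrg1-high minus Ndrg1-low difference (log2) of 19 genes in each of 4 groups (colored symbols) and in the fit over the groups (black bar, ± SE). Mgarp lies between 1.03 and 1.38 in every group, and Pdk1, Kdm3a and Car9 lie below 0 in DIO-LFD.

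Other classes of HIF targets had medians nearer to that of all genes. Of 6 measured genes of acid export, 3 lay above 0 and 0 had an unadjusted p below 0.05, and Car9, the carbonic anhydrase often stained as a sign of low oxygen, ran from 3.78 to 7.21 (median 5.40) against 4.67 to 5.83 (median 5.10) with a difference of 0.12 ± 0.28. Of 9 genes of collagen hydroxylation and disulfide formation 8 lay above 0, with a median of 0.04. Ero1a, an oxidase that forms disulfide bonds, was higher by 0.50 ± 0.16 (adjusted p = 0.362). Histone demethylases had a median of 0.07 with 8 of 10 above 0. Among growth arrest genes and repressors 11 of 13 lay above 0 (median 0.13), and Maff, a small bZIP factor, was higher by 0.64 ± 0.16 (adjusted p = 0.194).

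The relatives of Ndrg1, whose protein shares their fold, were looked at next. Ndrg2 ran from 10.97 to 12.45 (median 11.53) in Ndrg1-high and from 11.34 to 15.01 (median 11.86) in Ndrg1-low arrays, a difference of -0.78 ± 0.33 (adjusted p = 0.657). This was 0.23 with the muscle covariate and 0.06 without the muscle-rich arrays. Ndrg3 differed by -0.12 ± 0.12 and Ndrg4 by 0.10 ± 0.19. None of the family passed.

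Genes of other stress responses lay on both sides of 0. The integrated stress response, which slows translation, had 13 of 19 members above 0 (median 0.09), and Sesn2, which damps mTOR signaling, was higher by 0.81 ± 0.28 (adjusted p = 0.449), or 0.62 and 0.51 in the muscle settings, where the list median was -0.04 and -0.08. Iron handling genes had 11 of 13 above 0 (median 0.16), with Hmox1, which degrades heme, at 0.57 ± 0.29. The unfolded protein response (7 of 11 above 0, median 0.03) had 0 members with an unadjusted p below 0.05. Among p53 targets 8 of 14 lay above 0 (median 0.02), and Mdm2, the ligase that removes p53, was higher by 0.30 ± 0.09 (adjusted p = 0.288). Glucocorticoid targets had a median of 0.05, and the one with the widest difference, Pdk4, a kinase that muscle uses during fasting, differed by -3.11 ± 0.94, or -0.21 with the muscle covariate and 0.05 without the muscle-rich arrays.

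Skeletal muscle genes were lower in Ndrg1-high tumors. All 25 members of the muscle list lay below 0 and had an unadjusted p below 0.05, with a median of -4.09. Myh4, a fast myosin heavy chain, ran from 4.10 to 15.08 (median 4.63) in Ndrg1-high and from 3.88 to 17.76 (median 13.62) in Ndrg1-low arrays, a difference of -6.36 ± 1.34 (adjusted p = 0.135). Atp2a1, the calcium pump of fast fibers, differed by -6.00 ± 1.23 (-0.99 and -2.63 in the muscle settings), and the wide ranges show that single Ndrg1-low arrays were as low in these genes as most Ndrg1-high arrays. With the muscle covariate, which is the mean of the same genes, the list median was -0.04, and without the muscle-rich arrays it was -0.90 with 1 of 25 members above 0.

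The 5 genes with the smallest p among those lower were Pdgfrl, a PDGF receptor-like protein (-0.80 ± 0.14, adjusted p = 0.102), Chrnd, the delta subunit of the muscle acetylcholine receptor (-0.99 ± 0.18), Cacng1, a calcium channel subunit of muscle (-2.63 ± 0.49), Sln, which restrains the calcium pump of muscle (-2.29 ± 0.45), and Mustn1, a small nuclear protein of muscle and skeleton (-3.98 ± 0.78). Pdgfrl and Chrnd lay below the limit of low signal. Sln ran from 4.17 to 8.58 (median 5.19) against 5.29 to 10.53 (median 6.78). Sln and Ldb3, a protein of the sarcomere's Z-disk (-2.73 ± 0.70), were the 2 genes (0.0103%) whose Ndrg1-high arrays all stood below the Ndrg1-low arrays in each group. With the tied DIO-HFD arrays swapped both were apart in 3 groups and 0 genes in all 4, and with the tied arrays left out 8 genes were. With the muscle covariate Sln stood at -0.67, Ldb3 at 0.00 and Mustn1 at -0.97, and Pdgfrl, not a muscle gene by name, kept -0.60 and, without the muscle-rich arrays, -0.75.

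Stromal genes lay on both sides of 0. Fibroblast and matrix genes had 13 of 14 members below 0 and a median of -0.33, with Col1a1, a chain of type I collagen, running from 7.33 to 12.82 (median 10.67) against 9.71 to 13.70 (median 11.28), a difference of -1.01 ± 0.47 (adjusted p = 0.747). That median was 0.01 with the muscle covariate and 0.04 without the muscle-rich arrays, while Col1a1 stayed at -0.62 and -0.65. Endothelial markers had a median of 0.01 with 7 of 13 above 0, but -0.24 with 3 of 13 above 0 and -0.35 with 2 of 13 above 0 in the muscle settings. Tek, the angiopoietin receptor, was at 3.76 to 5.17 (median 4.40) against 3.92 to 6.32 (median 5.27), a difference of -0.85 ± 0.23 (adjusted p = 0.224), and Pecam1, an adhesion molecule of endothelium and leukocytes, at 0.48 ± 0.17 (adjusted p = 0.441), or 0.27 and 0.05 in the muscle settings. Pericyte and smooth muscle markers had 4 of 9 above 0 and 5 below, with a median of -0.04. Of these, Myh11, the myosin of smooth muscle, was higher by 0.55 ± 0.17 (adjusted p = 0.351), or 0.26 with the tied DIO-HFD arrays swapped.

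The direction of the adipocyte markers turned with the tie in DIO-HFD. Their median was 0.73 with 9 of 11 above 0, and 1.10 and 1.40 in the muscle settings, but -0.57 with the tied arrays swapped and -0.15 per unit of log2 Ndrg1 over 23 arrays. The highest list mean, 12.05, stood in DIO-HFD replicate 5, the tied array that array order made Ndrg1-high. Among the members were Pparg, the regulator of fat cell formation (1.01 ± 0.31, adjusted p = 0.339, or 0.51 after the swap), and Fabp4, a fatty acid carrier (1.09 ± 0.75, or 0.05 after the swap).

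The immune lists lay on both sides of 0, and several turned with the setting. Cytotoxic effectors had 13 of 14 members above 0 and 5 of 14 higher at an unadjusted p below 0.05, against 3.62% of all genes. Their median was 0.55, and 0.45 and 0.38 in the muscle settings, 0.20 with the tied arrays swapped and 0.15 per unit of log2 Ndrg1. Gzmb, granzyme B, ran from 7.62 to 10.28 (median 8.65) against 6.17 to 9.26 (median 8.12) and was higher by 0.97 ± 0.31 (adjusted p = 0.37), or 0.60 and 0.45 in the muscle settings. Fasl, a death ligand, was higher by 0.90 ± 0.22 (adjusted p = 0.157) but lay below the limit of low signal, and Ifng, interferon gamma, and Prf1, perforin, stood at 1.07 ± 0.49 (0.67 and 0.19 in the muscle settings) and 0.83 ± 0.33 (0.25 and 0.26). T cell markers had 10 of 12 above 0 and a median of 0.46, with Cd28, a costimulatory receptor, at 0.65 ± 0.21 (adjusted p = 0.385). The T cell median was 0.19 in the first muscle setting and -0.09 in the second, where 4 of 12 lay above 0. MHC class II genes went from 8 of 8 above 0 (median 0.24) to 1 of 8 without the muscle-rich arrays (-0.17), and MHC class I genes from 7 of 12 (0.02) to 1 of 12 (-0.14).

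Among myeloid cells, the genes of neutrophils had a median of 0.50 with 12 of 14 above 0. Cxcr2, their chemokine receptor, stood at 0.51 ± 0.18 (adjusted p = 0.474) and Clec4e, a receptor for microbial glycolipids, at 0.99 ± 0.44. Cxcr2 was higher in 4 of 4 groups. Clec4e was higher by 2.24 in CON-LFD and 1.64 in DIO-HFD but stood at 0.22 in DIO-VSG and -0.72 in DIO-LFD. General macrophage markers had a median of -0.03 with 6 of 14 above 0, and Cd163, a scavenger receptor, stood at -0.82 ± 0.49, or 0.01 and 0.65 in the muscle settings. Genes that macrophages raise in low oxygen had 9 of 10 above 0 and a median of 0.48, of which Nos2 is given above. Arg1, arginase, ran from 5.82 to 11.69 (median 7.57) against 5.72 to 9.19 (median 7.21), and was higher by 2.36 in CON-LFD and 2.38 in DIO-HFD but stood at -0.27 in DIO-LFD and -1.65 in DIO-VSG. Over the groups its difference was 0.79 ± 0.58, or 0.08 with the tied arrays swapped. The interferon gamma response had 13 of 14 above 0 (median 0.26), but 5 of 14 without the muscle-rich arrays (-0.08), and a median of 0.09 per unit of log2 Ndrg1. Gbp2, an antimicrobial GTPase, stood at 0.66 ± 0.26, or 0.27 and -0.04 in the muscle settings. The type I interferon response had 18 of 19 below 0 (median -0.25), with Usp18, which shuts off interferon receptor signaling, at -0.55 ± 0.25 (adjusted p = 0.718). The type I median was -0.02 with the muscle covariate and -0.19 without the muscle-rich arrays, where 1 of 19 lay above 0. It was -0.09 with the tied arrays swapped and -0.60 per unit of log2 Ndrg1. Usp18 was lower in 3 groups and stood at 0.685 in DIO-LFD.

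Genes of DNA replication and mitosis had 18 of 23 below 0 (median -0.08). Their median was -0.12 with the muscle covariate, but -0.03 with the tied DIO-HFD arrays swapped. Without the muscle-rich arrays these genes had a median of -0.24 with 3 of 23 above 0, where the median of all genes was -0.0039. Among them was Ccnb2, a mitotic cyclin, running from 13.00 to 13.56 (median 13.32) against 13.30 to 13.92 (median 13.65), a difference of -0.32 ± 0.09 (adjusted p = 0.285). Oxidative phosphorylation had 19 of 23 below 0 (median -0.04), with Uqcrc1, a core subunit of complex III, at -0.25 ± 0.11. In the muscle settings Ccnb2 stood at -0.42 and -0.44 and Uqcrc1 at -0.42 and -0.48. The oxidative phosphorylation list did not move with Uqcrc1. Its median was -0.0054 with 11 of 23 above 0 and -0.0352 with 8 of 23 above 0 in these settings. It was 0 after centering of the arrays on their medians. Cholesterol and fatty acid synthesis had 14 of 16 above 0 (median 0.13), with Sc5d, a late enzyme of cholesterol synthesis, at 0.31 ± 0.14, or 0.14 and 0.10 in the muscle settings, where the list median was -0.18 and -0.19. Of mammary epithelial markers 11 of 14 lay below the limit of low signal, as did 8 of 8 skin markers. The mammary epithelial list had 8 of 14 differences above 0 and 5 below, with a median of 0.03. Its member Krt8, a keratin of luminal cells that E0771 tumors showed at 11.28 to 13.20, differed by -0.45 ± 0.19 (adjusted p = 0.663).

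**Figure D4:**
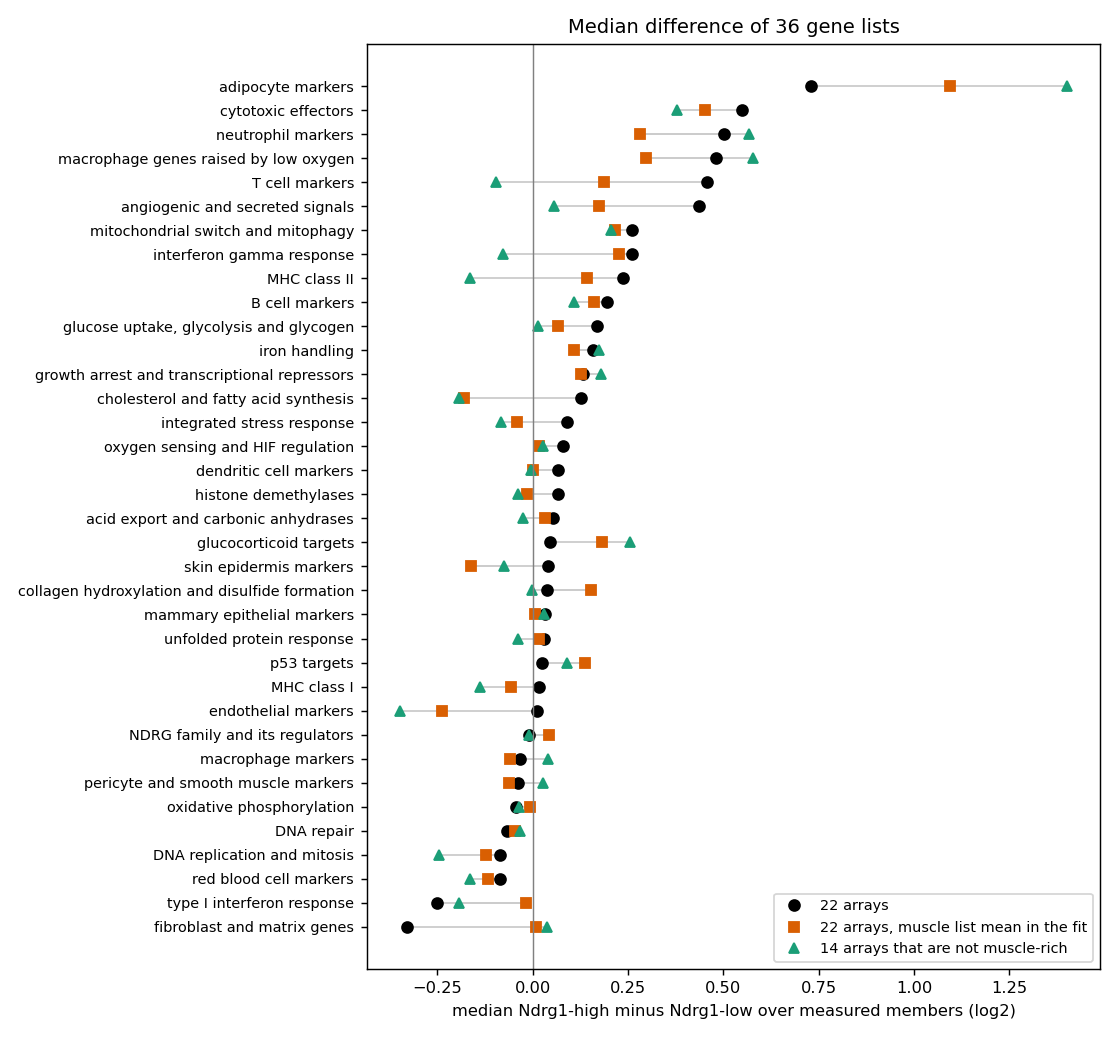
Median Ndrg1-high minus Ndrg1-low difference (log2) of the measured members of each gene list other than skeletal muscle, over 22 arrays (black), with the muscle mean as a covariate (orange) and over the 14 arrays that are not muscle-rich (green). The mitochondrial list lies at 0.26, 0.22 and 0.21, and the T cell list at 0.46, 0.19 and -0.09.

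Taking Ndrg1 as a number over all 23 arrays, in place of the 11 and 11 division, gave calls. Per unit of log2 Ndrg1, limma called 31 genes higher (0.159%) and 142 lower (0.728%), and 23 of the 173 were members of the muscle list. Among the 31 were Pdk1 (slope 0.51 ± 0.11, adjusted p = 0.0232), Egln3 (0.65 ± 0.13, 0.0167), Bnip3 (0.88 ± 0.19, 0.0229), Mxi1 (0.53 ± 0.12, 0.0390), Slc2a1 (0.62 ± 0.14, 0.0263), Ankrd37 (1.01 ± 0.17, 0.00979), Adm (1.05 ± 0.24, 0.0380) and Mgarp (1.24 ± 0.27, 0.0226). These 8 genes were picked from the 31 for their tie to low oxygen. The 31 also held genes of no list, such as Lmbr1l, Tmem45a2, Gzmf and Selenbp1. The lists of acid export, histone demethylases, collagen hydroxylation and growth arrest had 0 members called higher. Kdm3a did not pass (0.46 ± 0.16, adjusted p = 0.230). With the muscle mean as a covariate 0 genes passed, and over the 15 arrays that were not muscle-rich 2 passed, both higher.

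The genes whose levels followed Ndrg1 most closely, by the within-group correlation over 23 arrays that share the array scale, were Lmbr1l (r = 0.83, Spearman 0.83) and Ankrd37 (0.80, 0.85). Pdk1 (0.80, 0.82), Vim, the intermediate filament of mesenchymal cells (0.78, 0.79), Egln3 (0.78, 0.85), Gzmf, a granzyme (0.78, 0.77), and Prok1, a secreted angiogenic factor of endocrine glands (0.78, 0.82), were among the 10 closest. Vim spanned little, from 17.39 to 17.64 in Ndrg1-high and from 17.23 to 17.59 in Ndrg1-low arrays. Among the 5 most opposite were Mfap4, a microfibril protein (-0.90, Spearman -0.87), Cxcl14, a chemokine (-0.84, -0.77), Cilp, a cartilage protein (-0.84, -0.85), and Apod, a lipocalin (-0.84, -0.79). Mfap4 ran from 4.74 to 8.44 (median 6.33) in Ndrg1-high and from 6.73 to 10.10 (median 8.11) in Ndrg1-low arrays, a difference of -1.89 ± 0.40 (adjusted p = 0.135), or -0.88 with the muscle covariate.

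Whether the difference itself varied by group was tested with an F test of the 3 terms for group and division together. Limma called 0 genes (0%), with 1355 at an unadjusted p below 0.05 and a smallest adjusted p of 0.141. That smallest p belonged to Spns2, a transporter of sphingosine-1-phosphate, whose differences were 0.73 for CON-LFD, -1.28 for DIO-HFD, -0.19 for DIO-LFD tumors and 0.84 for DIO-VSG. Tmem204, a protein of endothelial junctions (1.70, -1.18, -1.55 and 0.74 in the same order), and Fancg, of the Fanconi DNA repair complex (0.01, -1.40, 0.28 and 0.59), followed at an adjusted p of 0.250. For Pdk1 and Kdm3a, whose sign differed in DIO-LFD, the DIO-LFD value rests on 2 against 2 arrays.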

How the data were processed

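Tumor RNA of 23 mice was measured on Clariom S mouse arrays (Affymetrix). The deposited log2 values had been made by the authors with the Transcriptome Analysis Console, which applied a signal space transformation followed by robust multichip average scaling, and were taken without change. Array medians ran from 6.13 to 6.5 and the lowest correlation between arrays was 0.961. Arrays carry no counts, so their number limits the precision, and each p-value weighs a difference against the spread between these tumors.

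Among 22206 probe sets, 19572 had 1 gene symbol, 0 had several and 2634 had none. All 19572 matched a current name through their Entrez identifier. Where a gene had several probe sets (55 genes), the one with the highest mean was kept, which left 19505 genes. A low signal is a mean under 4.77, the value below which 40% of the probe set means lay.

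Members and lists (37 lists, 488 of 536 members measured) were chosen with earlier results of these data known, and so was the limit of 9 for muscle-rich arrays. Groups came from the titles. Each gene was fitted with lmFit and eBayes in limma 3.58.1 (R 4.3.3) on 22 arrays with group as a term (17 residual and 4.19 prior degrees of freedom). The step was tested on simulated data. There each gene varied independently, so shared shifts such as those of the muscle genes were not covered. The genes eligible for naming were the 2 markers, the 5 of smallest p in each direction (since fewer than 5 passed), up to 4 members of each list by p and up to 2 by size, the 10 most and 5 least correlated with Ndrg1, and the 3 of smallest p in the test of variation by group; not all of them are given. Ldb3 and genes that only 1 alternative called were named after their values were seen. Alternatives changed the filter, the division, the scaling, the variance model, weights, covariates, the groups, the arrays and the probe set rule. Promoter sequences came from RefSeq (GRCm38.p6), 1 window a gene, the first listed.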

Additional observations from a re-analysis of the deposited data

Results flagged for a closer look

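Ndrg1 in DIO-LFD replicate 5, an Ndrg1-low and muscle-rich array, stood at 14.09, far below the other 4 DIO-LFD arrays, of which the nearest was at 14.98. It was the only array set apart in 16 checks of a group's highest and lowest value, and chance sets apart about 1 in 20 groups.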

How the results depend on the processing

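With the highest 2 and lowest 2 arrays of each group 15 genes were higher and 125 lower, and with Ndrg1 as a number over 23 arrays 31 and 142. The adipocyte mean as a covariate gave 2 higher (Mgarp and Nos2) and 0 lower, and Ndrg1 as a number over the arrays that were not muscle-rich, added after seeing the data, gave 2 higher (Selenbp1 and Rp1) and 0 lower. Leaving out 1 array gave 0 to 7 higher and 0 to 51 lower genes. The mean-variance trend with a robust prior gave 1 gene whose difference varied by group. The cause of these shifts was not tested. Apart from these and the replicate block, every setting run gave 0 calls, and centering each array on its median moved the unadjusted share that was higher from 55.3% to 68.5%. Swapping the tied DIO-HFD arrays, also added later, gave 577 higher and 615 lower at an unadjusted p below 0.05 and 0 calls.

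With the replicate number as a block 1 gene, Mmp10, was called higher (1.94, adjusted p = 0.0175) and 0 lower, and Car9 turned to -0.0207. Only 4 of 23 arrays correlated best with their own number, so the numbers were not taken as a pairing.

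Signs turned for 10 of 68 named genes with the muscle covariate, for 8 of 68 without the muscle-rich arrays and for fewer in other settings. With the muscle covariate these were Car9 (-0.11), Cd163 (0.0122), Cxcl14 (0.32), Ldb3 (0.0037), Ndrg2 (0.23), Pfkm (0.0208), Ppp1r3c (0.72), Spns2 (-0.19), Tmem204 (-0.35) and Vim (-0.0012). Without the muscle-rich arrays they were Cd163 (0.65), Cxcl14 (0.27), Gbp2 (-0.0376), Ndrg2 (0.0583), Pdk4 (0.0546), Ppp1r3c (0.26), Spns2 (-0.14) and Vim (-0.0031). With the highest 2 and lowest 2 arrays they were Fabp4 (-0.15), Ndrg4 (-0.19) and Tmem204 (-0.075), with Ndrg1 as a number Fabp4 (-0.0142) and Ndrg4 (-0.0566), and with the tied arrays swapped Fancg (0.14) and Ndrg4 (-0.10). Of 68 named genes 65 kept their sign in all 22 fits that left out 1 array, and the others ranged from -0.0913 to 0.304 (Car9), -0.0475 to 0.141 (Spns2) and -0.0877 to 0.24 (Tmem204). No skin gene had a mean above the limit of low signal, so that list has no median under that filter.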
